A study of Arabidopsis thaliana with 6 samples.

Results

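Peroxiredoxins are thiol peroxidases, and the 9 genes described here belong to the peroxiredoxin system of *Arabidopsis thaliana*: the plastid enzymes 2CPA, 2CPB, PRXQ and PRXIIE, the cytosolic enzymes PRXIIB and PRXIIC, the mitochondrial enzyme PRXIIF, the plastid reductase NTRC and the repair enzyme SRX. They were taken by locus, from 33602 genes in the deposited count table, and all 9 had enough reads to be tested. Messenger RNA was sequenced from leaves of *cat2-2*, a mutant of the peroxisomal catalase gene CAT2 in the Columbia-0 background, to follow photorespiratory stress. The high light group (3 libraries) was sampled from 3-week-old plants after 3 h of light at 1200 µmol m-2 s-1, with ambient CO2 (400 ppm) and 55% humidity. The high CO2 group (3 libraries) was sampled from plants of the same age kept in their growth conditions, light at 120 µmol m-2 s-1 with 3000 ppm CO2, a level that impairs photorespiration, and 75% humidity. Every library of both groups came from *cat2-2*, with middle-aged leaves of 15 plants pooled, and the set-up was repeated for each of the 3 biological repeats. The groups differ at once in light, CO2, humidity, growth chamber and time of sampling, whose parts cannot be told apart, and no wild type is used here.

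A peroxiredoxin reduces hydrogen peroxide and organic peroxides with a cysteine that becomes oxidised in the act. The oxidised enzyme is then reduced again by a thioredoxin, a glutaredoxin or, for the 2-Cys enzymes of the plastid, chiefly by NTRC, which draws on NADPH and carries a thioredoxin domain of its own. At high peroxide the cysteine of 2-Cys enzymes can be oxidised further and the enzyme falls silent until sulfiredoxin repairs it. In leaves the 2-Cys peroxiredoxins are among the abundant stromal proteins, and they also pass oxidation on from peroxide to other plastid proteins.

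Library totals lay between 18047295 and 24149149 counts. A floor of 3 counts, taken as an approximate upper limit where the count was 0, equalled at most 0.156 CPM of a single library. CPM stands for read counts normalised to the TMM-scaled size of each library. Errors of CPM are SD over 3 libraries, those of log2 fold changes (high light over high CO2) are SE, and calls were made where the adjusted p, taken over 18504 tested genes, was below 0.05. The libraries numbered 3 lay apart from the others of their group on principal component 2 (4.90% of the variance), and in both groups they were the lowest for 2CPA, 2CPB, PRXQ, PRXIIE and NTRC. Leaf identity was clear in every library: the summed CPM of 5 leaf markers was 23622 to 32810 in high light and 52005 to 72732 in high CO2, while 2 of 4 root markers and 1 of 3 seed markers were at 0 in all libraries and the rest of the root markers had 20 counts in high light and 0 in high CO2.

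The plastid members were lower in high light and the cytosolic members were higher. Of the 9 genes, 5 fell (2CPA, PRXQ, PRXIIE, PRXIIF and NTRC), 2 rose (PRXIIB and PRXIIC), and 2CPB and SRX did not pass the test. Among all genes tested, 30.4% fell and 30.4% rose, so that a call in either direction was made for 60.8% of genes, against 7 of 9 here. The median log2 fold change was -0.52 over the 9 members and -0.06 over all genes tested. For 7 members the high light and high CO2 libraries did not overlap in CPM, as for 67.2% of all genes tested. With changes this widespread a call alone sets no gene apart, and the description below turns on the single genes. With both libraries numbered 3 left out, 2 members rose and 5 fell, with 2CPB among those that fell and PRXIIF not.

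**Figure D1:**
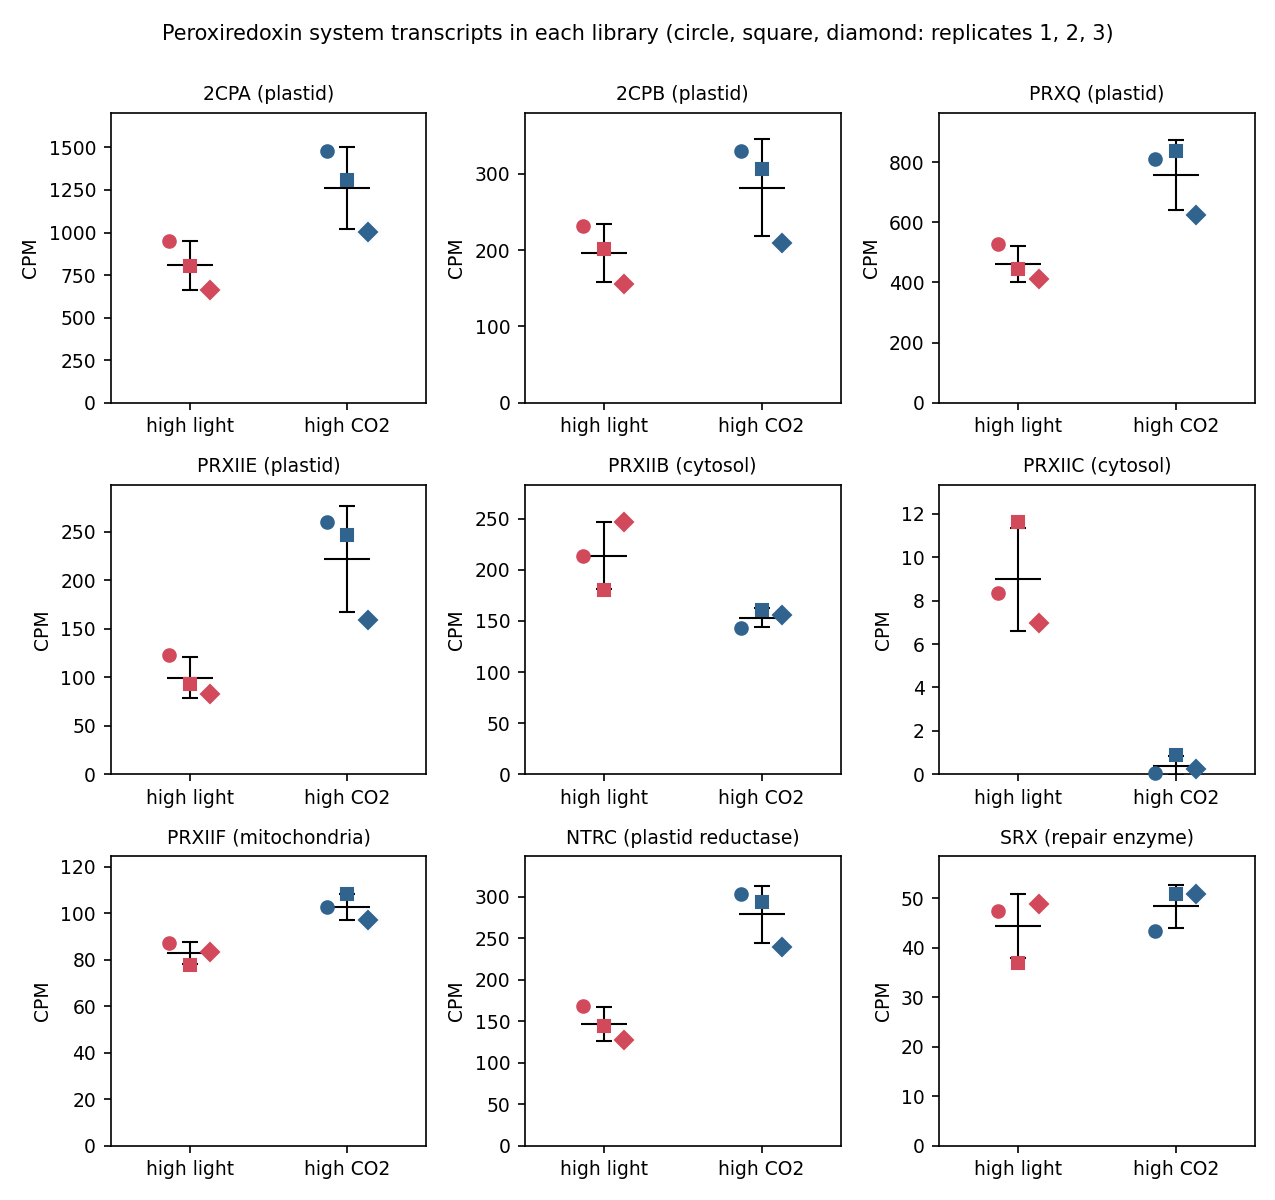
CPM of the 9 members in each library, with high light on the left and high CO2 on the right of every panel and a vertical axis from 0. Points are libraries (circle, square and diamond for replicates 1, 2 and 3), and bars give the mean and SD over 3 libraries. The groups overlap only for 2CPB and SRX, and PRXIIC is near 0 in high CO2.

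2CPA and 2CPB encode the plastid 2-Cys peroxiredoxins, which form a functional pair in the stroma. Their coding sequences are 81.9% identical and their proteins, of 266 and 273 residues, 86.2% identical over the alignment. The stretch around the codon of the peroxidatic cysteine, the residue that meets the peroxide, shows how far reads can tell the genes apart. It is given here as coding bases 319 to 393 of 2CPA (AT3G11630, chromosome 3, plus strand) and 340 to 414 of 2CPB (AT5G06290, chromosome 5, plus strand), from the RefSeq sequence of TAIR10.1, with the 11 of 75 bases that differ between them in capitals:
2CPA: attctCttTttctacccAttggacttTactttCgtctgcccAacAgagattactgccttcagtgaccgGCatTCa
2CPB: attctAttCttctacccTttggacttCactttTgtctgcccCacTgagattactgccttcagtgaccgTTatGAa
No stretch of 50 bases of either transcript occurs elsewhere in the genome, so reads of that length without a mismatch match 1 place. Genes that overlap the 2 on the genome were left out of this search.

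2CPA (AT3G11630) had 949.8, 806 and 664 CPM in the high light libraries, against 1480.5, 1307 and 1004 CPM in the high CO2 libraries. The lowest high CO2 library lay just above the highest high light library, so the groups did not overlap. Its log2 fold change was -0.65 ± 0.20 (edgeR quasi-likelihood test, adjusted p = 0.0199), a level 0.638 times that in high CO2. The call was lost without high light replicate 2 or 3 or high CO2 replicate 1 or 2, each left out alone (edgeR adjusted p = 0.0586 to 0.0745). On the opposite strand, AT3G11620, which shares 14.6% of the exon bases of 2CPA, was low, with means of 5.62 CPM in high light and 9.89 CPM in high CO2.

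2CPB (AT5G06290) had 232, 201 and 156 CPM in the high light libraries, against 330.3, 307 and 209 CPM in the high CO2 libraries. Here replicate 1 of high light lay above replicate 3 of high CO2, and the groups overlapped. The log2 fold change of -0.52 ± 0.21 did not pass the threshold (edgeR adjusted p = 0.0621), with a 95% interval from -1.01 to -0.03. It passed in 5 of 15 other settings. Among these were upper-quartile scaling (-0.79, edgeR adjusted p = 0.0123) and a fit with the replicate number as a block (-0.51, edgeR adjusted p = 0.00730). It also passed without high light replicate 1 (-0.66, edgeR adjusted p = 0.0479), without high CO2 replicate 3 (-0.63, edgeR adjusted p = 0.0168) and with both replicates 3 left out (-0.48, edgeR adjusted p = 0.0300). The estimates of 2CPA and 2CPB lie within each other's intervals, and a call for the first and none for the second is no test of a difference between them.

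PRXQ and PRXIIE are the other plastid enzymes. PRXQ is a monomeric peroxidase bound to the thylakoids, and PRXIIE is the plastid member of the type II group, which takes electrons from glutaredoxin. PRXQ (AT3G26060, chromosome 3) had 529, 445 and 413 CPM in high light, against 809.8, 838 and 626 CPM in high CO2. All 3 high light libraries lay below all 3 high CO2 libraries, and the log2 fold change was -0.71 ± 0.17 (edgeR adjusted p = 0.00642). PRXIIE (AT3G52960, chromosome 3) had 122.9, 92.9 and 82.3 CPM in high light, against 259.7, 247 and 159 CPM in high CO2. Again no library of one group reached the other, and its log2 fold change of -1.16 ± 0.23 (edgeR adjusted p = 0.00217) was the lowest estimate of the 9, with a 95% interval from -1.67 to -0.64 that overlaps those of the other plastid members. Among all genes tested, 13.6% were called and fell by more than 2-fold, as PRXIIE did. Both calls held under all 15 other settings tried.

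NTRC (AT2G41680, chromosome 2) encodes the NADPH-dependent thioredoxin reductase that reduces the 2-Cys enzymes. It had 168, 144 and 128 CPM in the high light libraries, against 303, 294 and 239 CPM in the high CO2 libraries. The groups lay far apart relative to their spread, with means of 146.7 ± 20.5 CPM in high light and 278.7 ± 34.5 CPM in high CO2 (SD, n = 3 each). The log2 fold change was -0.93 ± 0.16 (edgeR adjusted p = 0.00117) and was called under all 15 other settings. The gene on the opposite strand, AT2G41670, shares 4.63% of the exon bases and had means of 2.77 CPM in high light and 2.03 CPM in high CO2, far below NTRC.

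PRXIIB, PRXIIC and PRXIID encode the cytosolic type II enzymes, monomeric peroxidases reduced by glutaredoxins and thioredoxins. PRXIIB (AT1G65980) and PRXIIC (AT1G65970) are neighbours on the minus strand of chromosome 1, and PRXIID (AT1G60740), which is not among the 9, lies on its plus strand. Their proteins all have 162 residues, of which PRXIIB and PRXIIC share 94.4% and PRXIIC and PRXIID share 98.8%. Coding bases 115 to 189, around the codon of the peroxidatic cysteine at residue 51, are printed because the 3 genes are told apart by few bases there. Capitals mark 7 bases at which PRXIIB and PRXIIC differ and, in PRXIID, the 1 base at which it differs from PRXIIC (RefSeq, TAIR10.1):
PRXIIB: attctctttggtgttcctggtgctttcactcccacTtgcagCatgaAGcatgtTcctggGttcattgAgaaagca
PRXIIC: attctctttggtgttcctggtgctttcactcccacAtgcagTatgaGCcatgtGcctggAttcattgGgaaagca
PRXIID: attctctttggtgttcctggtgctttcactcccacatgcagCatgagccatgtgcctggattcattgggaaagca
Over the whole coding sequence of 489 bases, PRXIIB and PRXIIC differ at 41 bases and PRXIIC and PRXIID at 18. Of the stretches of 50 bases in each transcript, 12.2% of PRXIIC, 10.8% of PRXIID and 0.532% of PRXIIB occur at another place, and reads from these may have been split or dropped in the counting.

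PRXIIB (AT1G65980) had 214, 181 and 247 CPM in the high light libraries, against 143, 161 and 156 CPM in the high CO2 libraries. The lowest high light library stood above the highest high CO2 library, and the spread was wider in high light (coefficient of variation 15.4%) than in high CO2 (6.10%). Its log2 fold change was +0.48 ± 0.15 (edgeR adjusted p = 0.0227), a level 1.39 times that in high CO2. The call was lost with upper-quartile scaling (0.21, edgeR adjusted p = 0.226) and without high light replicate 1 (edgeR adjusted p = 0.0508), high light replicate 3 (edgeR adjusted p = 0.0869) or high CO2 replicate 1 (edgeR adjusted p = 0.0562). Upper-quartile factors moved the median of all genes to -0.33. A change of factors shifts all genes about equally. The value of PRXIIB relative to the median, +0.54 under both scalings, is therefore no separate test.

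PRXIIC (AT1G65970) was almost uncounted in high CO2 and present in high light. It had 181, 268 and 152 counts in the high light libraries, against 1, 20 and 5 counts in the high CO2 libraries. In CPM these were 8.36, 11.6 and 6.98 in high light and 0.0473, 0.889 and 0.260 in high CO2, so every high light library stood far above every high CO2 library. The log2 fold change was +4.44 ± 0.55 (edgeR adjusted p = 1.6e-04), and the gene was called under all 14 other settings that tested it. PRXIIC passed the filter on low counts (minimum 10) through its high light libraries, where it is high. That it was tested at all thus depends on the group in which it rose. Among all genes tested, 19.1% were called and rose by more than 2-fold, as PRXIIC did. Counts pooled over the libraries of a group, per pooled library size, were 21.9 times as high in high light as in high CO2. High CO2 replicate 2 gave 20 of the 26 counts of its group, and the ratio was 60.8 without it and 15.1 without high CO2 replicate 1.

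PRXIIC shares 48.7% of its exon bases with GAD2 (AT1G65960, glutamate decarboxylase) on the opposite strand, and the strand setting of the counting is not given in the sources used here. GAD2 had 8556, 7498 and 8078 counts in the high light libraries, against 11580, 13796 and 13193 counts in the high CO2 libraries. The log2 fold change of GAD2 was -0.76 ± 0.15 (edgeR adjusted p = 0.00248). In high CO2 replicate 1, GAD2 had 11580 counts and PRXIIC 1 count. Whether reads of the shared bases were counted for either gene or dropped was not tested. PRXIID (AT1G60740) had 5, 6 and 8 counts in high light, against 0, 0 and 0 counts in high CO2. It had too few counts to enter the test with the filter on low counts, and without that filter it rose (edgeR adjusted p = 0.00340). Its pooled level in high light was 5.99 times that of a floor of 3 counts over the high CO2 group. Without replicate 3 of both groups it was 3.58 times that floor. The floor bounds the high CO2 side only, and the counting error of the few high light reads is left out. PRXIIA (AT1G65990), a further type II gene, and PER1 (AT1G48130), the seed-type 1-Cys peroxiredoxin, were at 0 counts in all 6 libraries.

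PRXIIF and SRX complete the set. PRXIIF (AT3G06050, chromosome 3), the mitochondrial peroxiredoxin, had 87.2, 77.7 and 83.4 CPM in high light, against 103, 108 and 97.04 CPM in high CO2. The libraries of each group lay close together (coefficients of variation 5.78% in high light and 5.52% in high CO2) and the groups did not overlap. Its log2 fold change of -0.31 ± 0.12 only just passed the test (edgeR adjusted p = 0.0479), and 13 of 15 other settings gave an adjusted p above the threshold, with an estimate below 0 under each. SRX (AT1G31170, chromosome 1), the sulfiredoxin of plastids and mitochondria that repairs over-oxidised 2-Cys enzymes at the cost of ATP, had 47.4, 37.0 and 48.8 CPM in high light, against 43.3, 50.9 and 50.8 CPM in high CO2. The groups overlapped, and its log2 fold change was -0.12 ± 0.14 (edgeR adjusted p = 0.483), with a 95% interval from -0.45 to 0.21. It passed the threshold only with upper-quartile scaling (-0.39, edgeR adjusted p = 0.0333), which shifts all genes about equally. The value of SRX relative to the median of all genes, -0.06 under both scalings, is therefore no separate test.

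**Figure D2:**
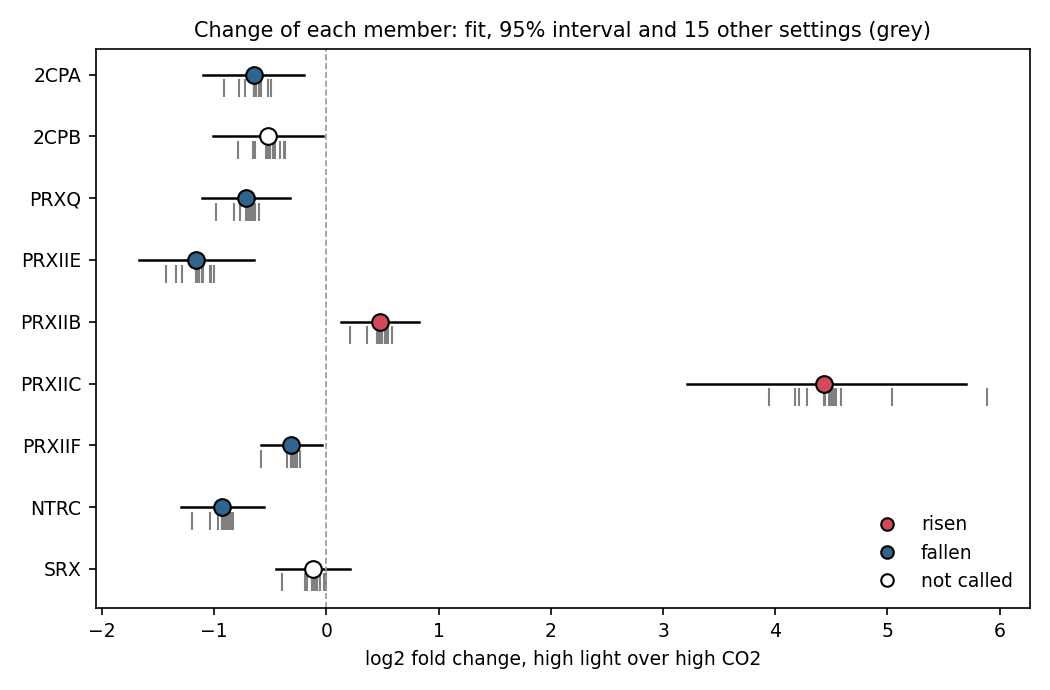
Log2 fold change of each member, high light over high CO2, on the horizontal axis. Large points are the estimates (red risen, blue fallen, white not called), black lines 95% intervals, and grey ticks the estimates under 15 other settings (14 for PRXIIC). The plastid genes, NTRC and PRXIIF lie below 0, PRXIIB and PRXIIC lie above 0, and the interval of SRX spans 0.

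To compare levels between genes, CPM were divided by exon length in kilobases, with lengths from the TAIR10.1 annotation, which may differ from those used in the counting. The length of PRXIIC includes the 48.7% of its exon bases shared with GAD2. If reads of these bases were dropped, its levels per length, shares and ratios are too low. On that scale the order in high light was 2CPA (686 ± 121), PRXQ (363 ± 47.3), PRXIIB (161 ± 24.8), 2CPB (136 ± 26.5), PRXIIE (85.5 ± 18.1), NTRC (80.8 ± 11.3), PRXIIF (67.5 ± 3.90), SRX (30.6 ± 4.46) and PRXIIC (12.2 ± 3.22) CPM per kilobase. In high CO2 the order was 2CPA (1075 ± 205), PRXQ (595 ± 90.7), 2CPB (195 ± 44.4), PRXIIE (191 ± 47.2), NTRC (154 ± 19.0), PRXIIB (116 ± 7.06), PRXIIF (83.7 ± 4.62), SRX (33.3 ± 3.03) and PRXIIC (0.541 ± 0.594) CPM per kilobase. The ranges of neighbours overlapped in high light for PRXIIB and 2CPB, PRXIIE and NTRC, and NTRC and PRXIIF, and in high CO2 for 2CPB and PRXIIE and for PRXIIE and NTRC. PRXIIB thus ranked 3 in high light and 6 in high CO2, while 2CPA and PRXQ led in both groups.

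The summed level of the 7 peroxiredoxin genes was 1511 ± 204.5 CPM per kilobase in high light and 2256 ± 380 CPM per kilobase in high CO2 (SD, n = 3 each). The plastid genes held 85.9%, 85.3% and 80.2% of that sum in the high light libraries, against 92.5%, 91.2% and 89.2% in the high CO2 libraries, and the groups did not overlap. PRXIIB and PRXIIC together held 11.7% ± 2.62 in high light and 5.28% ± 1.13 in high CO2. PRXIIB alone accounted for nearly all of this, since PRXIIC held 0.813% ± 0.227 in high light and 0.0240% ± 0.0242 in high CO2. The 2-Cys pair held 54.2% ± 3.14 in high light and 56.1% ± 2.15 in high CO2, which overlap.

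**Figure D3:**
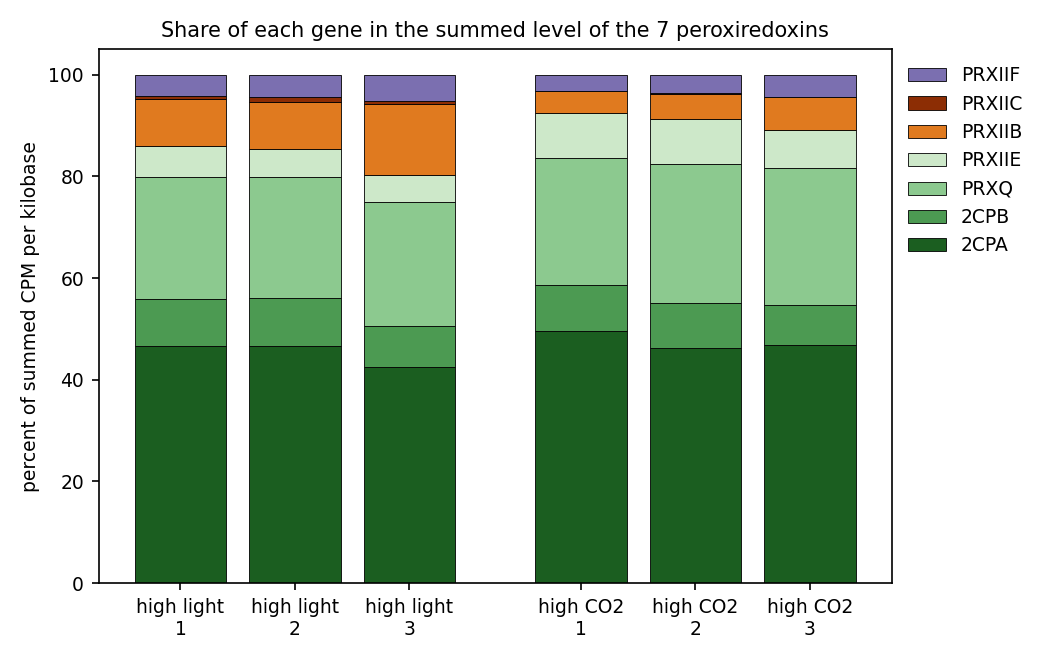
Share of each of the 7 peroxiredoxin genes in their summed CPM per kilobase (vertical axis, percent) in each library, high light on the left. Greens are plastid genes, orange and brown the cytosolic PRXIIB and PRXIIC, and purple PRXIIF. The plastid share is 80.2% to 85.9% in high light and 89.2% to 92.5% in high CO2.

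Ratios within a library do not depend on how libraries are scaled. Of 5 ratios of levels per length, compared by a two-sided exact permutation test whose smallest p with 3 against 3 libraries is 0.1, 3 reached that p and separated the groups. NTRC stood at 9.58%, 9.64% and 10.4% of the level of 2CPA plus 2CPB in the high light libraries, against 11.2%, 12.2% and 13.2% in the high CO2 libraries (exact permutation p = 0.1, adjusted over the 5 ratios 0.167). PRXIIE stood at 23.4% ± 1.85 of PRXQ in high light and 31.7% ± 3.68 in high CO2 (exact permutation p = 0.1, adjusted 0.167). PRXIIC stood at 7.89% ± 3.31 of PRXIIB in high light and 0.451% ± 0.486 in high CO2 (exact permutation p = 0.1, adjusted 0.167). The high CO2 values of this ratio rest on only 1, 20 and 5 counts of PRXIIC. SRX stood at 3.38%, 3.09% and 5.003% of the 2-Cys pair in high light, against 2.01%, 2.65% and 3.51% in high CO2, and the groups overlapped (exact permutation p = 0.3). 2CPB stood at 19.8% ± 0.623 of 2CPA in high light and 18.1% ± 1.08 in high CO2, and here too the groups overlapped (exact permutation p = 0.2).

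Genes of plastid proteins that supply electrons to peroxiredoxins, directly or by way of thioredoxins, moved mostly the way of the plastid members. Of 18 plastid donors (thioredoxins, ferredoxins, ferredoxin-thioredoxin reductase subunits and glutaredoxins), 13 fell, 1 rose and 4 did not pass, where 30.4% of all genes tested fell and 30.4% rose. Their median log2 fold change was -0.51, against -0.06 over all genes tested. FD2 (AT1G60950), the main leaf ferredoxin, had 1157, 853 and 859 CPM in high light, against 3240, 3231 and 2180 CPM in high CO2, a log2 fold change of -1.59 ± 0.21. TRXF2 (-1.02 ± 0.13), an f-type thioredoxin, and FD1 (-0.99 ± 0.17), the minor ferredoxin, followed. The 1 gene that rose was TRXM3 (AT2G15570), an m-type thioredoxin, with 23.1, 22.7 and 25.2 CPM in high light, against 10.2, 11.3 and 12.0 CPM in high CO2 (+1.08 ± 0.12). CDSP32, a plastid thioredoxin-like donor of 2-Cys and PRXQ enzymes known from drought, had a log2 fold change of +0.37 ± 0.17 and did not pass (edgeR adjusted p = 0.0954). Without high CO2 replicate 2 the number that fell was 7.

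The ACHT and TRXL2 proteins are atypical plastid thioredoxins known to carry oxidation from reduced targets to the 2-Cys peroxiredoxins. Of 5 such genes, 3 rose, 1 fell and 1 did not pass, beside 30.4% of all genes tested in each direction, and their median log2 fold change was 0.56. TRXL2.1 (AT5G06690) had 24.03, 26.3 and 17.4 CPM in high light, against 9.50, 8.98 and 6.04 CPM in high CO2 (+1.46 ± 0.22), and ACHT2 (AT4G29670) had 208, 217 and 225 CPM in high light, against 114, 113 and 114 CPM in high CO2 (+0.93 ± 0.12). ACHT4 also rose (+0.56 ± 0.12). TRXL2.2, at -0.30 ± 0.12, was called at an edgeR adjusted p of 0.0494, lost that call in 11 of 15 other settings, and shares 41.4% of its exon bases with the opposite-strand gene AT5G04250.

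Outside the plastid, 4 of 11 donors rose, 1 fell and 6 did not pass, with a median log2 fold change of 0.09. The risen share is near the 30.4% of all genes tested, and 45.5% were called at all, against 60.8% of all genes tested. TRXH5 (AT1G45145), a cytosolic h-type thioredoxin known from defence, had 92.7, 65.0 and 99.5 CPM in high light, against 15.8, 22.1 and 25.2 CPM in high CO2 (+2.03 ± 0.22). NTRA, the NADPH-thioredoxin reductase that feeds h-type thioredoxins, rose (log2 fold change +1.01 ± 0.12), as did TRXH2 (+0.71 ± 0.14), while TRXH1 was at -1.22 ± 0.26 with means of 1.86 CPM in high light and 4.33 CPM in high CO2. The mitochondrial thioredoxins TRXO1 and TRXO2, which can reduce PRXIIF, had log2 fold changes of -0.16 ± 0.14 and 0.09 ± 0.22 and did not pass (edgeR adjusted p = 0.344 and 0.746). With upper-quartile scaling the number that fell was 4.

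**Figure D4:**
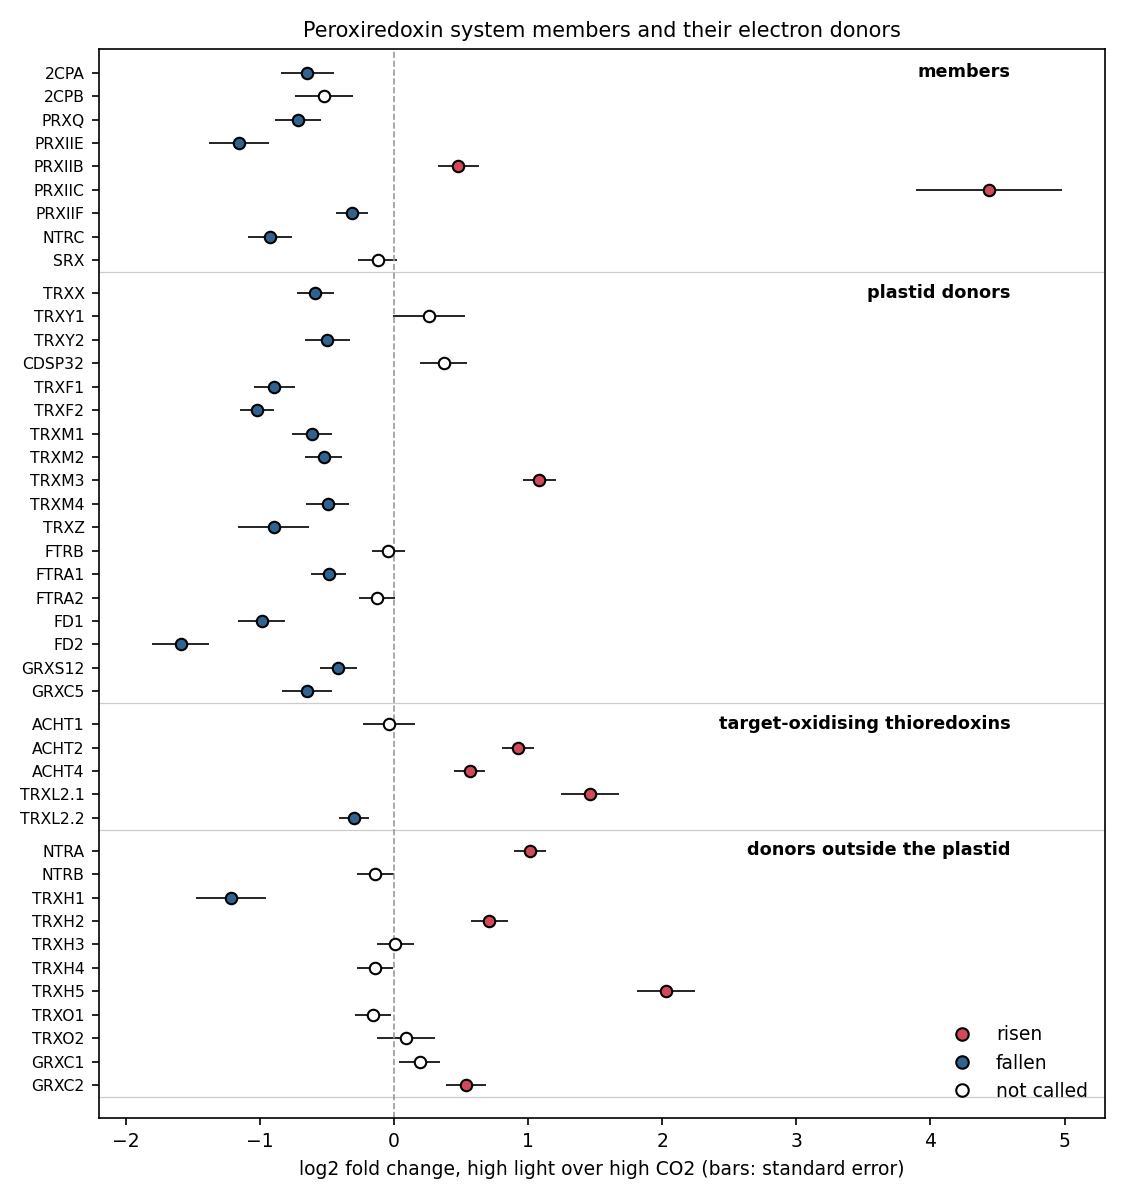
Log2 fold change, high light over high CO2 (horizontal axis), with SE bars, of the 9 members, 18 plastid donors, 5 target-oxidising thioredoxins and 11 donors outside the plastid. Red points rose, blue points fell and white points were not called. Of the plastid donors, 13 are blue and TRXM3 is red, while TRXY1 and CDSP32 lie above 0 without a call, and TRXH5 is the highest of the donors outside the plastid.

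All 5 leaf markers, genes of Rubisco, its activase and photosystem II, fell as well, where 30.4% of all genes tested fell. Their log2 fold changes were -0.71 (LHCB4.1) to -1.65 (RCA). Those of 2CPA, PRXQ, PRXIIE and NTRC were -0.65, -0.71, -1.16 and -0.93, and 2CPB, not called, was at -0.52. In pooled leaf tissue, fewer cells of a type and less RNA per cell cannot be told apart, and the part of a general fall of photosynthetic transcripts in the fall of the plastid members was not tested. CAT2 (AT4G35090), the gene mutated in all libraries, had 33.5, 43.8 and 42.6 CPM in high light, against 83.2, 108 and 91.3 CPM in high CO2 (log2 fold change -1.24 ± 0.16, edgeR adjusted p = 1.9e-04). Transcript of the mutant gene was therefore still counted, and without wild type its level checks no label.

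Genes with the pattern nearest to 3 members were found among 14270 genes by the root mean square difference of mean-centred log2 CPM over the 6 libraries. For 2CPA these were AT1G18440, annotated as a peptidyl-tRNA hydrolase family protein (difference 0.0400), the S-adenosylmethionine carrier gene SAMC1 (0.0411) and HS1, a heat stable protein (0.0437). For NTRC they were AT5G15390, a tRNA/rRNA methyltransferase family gene (0.0262), AT4G34090 (0.0308) and the photosystem II subunit gene PSBW (0.0349). PSBW averaged 1598 CPM in high light and 3006 CPM in high CO2. For SRX they were AT3G62560, a Ras-related GTP-binding family gene (0.0266), AT5G14710 (0.0428) and AT5G47710 (0.0436). Their log2 fold changes were -0.15, -0.17 and -0.04, beside -0.12 for SRX. Genes chosen by a small difference over these 6 libraries must have similar fold changes, so this closeness is no separate result.

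Windows of 250 bases before to 50 after the start of each gene were searched on both strands for 5 motifs: the W-box TTGAC, the ABRE core ACGTG, the heat shock element GAANNTTC, the as-1 half-site TGACG and the G-box CACGTG. The G-box contains the ABRE core, and the W-box and the as-1 half-site overlap where TTGACG occurs. Among 26711 promoters these were found in 50.5%, 26.9%, 11.5%, 23.1% and 7.79%. PRXIIC, the member with the highest fold change, held a W-box at position -53 relative to its start and another after the start, and an as-1 half-site at position -235. The 250 bases upstream of PRXIIC are printed with those upstream matches in capitals, as the complement on the printed strand (chromosome 1, minus strand, RefSeq TAIR10.1):
PRXIIC upstream: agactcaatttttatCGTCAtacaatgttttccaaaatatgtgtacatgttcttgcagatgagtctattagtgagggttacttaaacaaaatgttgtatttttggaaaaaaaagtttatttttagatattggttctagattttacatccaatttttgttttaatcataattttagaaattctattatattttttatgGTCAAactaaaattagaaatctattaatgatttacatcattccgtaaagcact
SRX held 1 W-box and 3 as-1 half-sites, of which 1 overlaps the W-box, and NTRC held 1 W-box. PRXIIF held 2 W-boxes, 1 ABRE core and 1 as-1 half-site, which overlaps a W-box. 2CPA and 2CPB held 1 as-1 half-site each. None of the 5 letter strings was in the windows of PRXQ, PRXIIE, PRXIIB or PRXIID. These matches describe letters in the windows, and members that fell and members that rose were among those with matches and among those without.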

How the data were processed

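Gene-level reads of 6 libraries, 3 of high light and 3 of high CO2, were analysed. Per the labels' protocols, the kit was TruSeq Stranded mRNA. The submitters' processing notes name Trim Galore 0.3.3, TopHat2 2.1.0, featureCounts of Subread 1.4.6 and the TAIR10 build; the sources used here do not give the strand setting or the handling of reads with several matches. The authors deposited unnormalized counts, whole reads per gene, for 33604 rows, of which 2 leftover header rows were left out. From these, genes were kept with edgeR's filterByExpr (minimum 10 counts, 18504 genes, 99.9% of counts) and scaled by TMM factors (0.932 to 1.07). They were tested with edgeR 4.0.16 in R 4.3.3 (robust glmQLFit and glmQLFTest, two-sided, 4 residual degrees of freedom, Benjamini-Hochberg). The test was checked on simulated data in which few genes changed, unlike here, so that check does not cover the scaling of these libraries. Each SE is the unshrunken log2 fold change divided by the square root of F, and intervals cover 95%. Floors cover counting error only. Groups and replicate numbers came from the sample titles. No replicate was a copy of another (chi-square over its degrees of freedom 9.28 to 49.8).

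The members and lists were chosen with earlier results of these data known. Named are all members, the other peroxiredoxin genes, CAT2, the largest called rises and falls of each donor list (at most 3 each way), and the 3 genes nearest to 2CPA, NTRC and SRX; CDSP32, TRXO1 and TRXO2 were named after their values were seen. Names, exons and sequences came from RefSeq's TAIR10.1, which matched 32835 of 33602 genes; its name differs from that of the build used for counting, so no genome coordinates are given. Coding sequences were compared by BLAST 2.17.0. The search for shared stretches of 50 bases left out genes that overlap the one searched. With these left out, no transcript of a listed donor shared such a stretch with another locus. The 15 other settings were DESeq2 1.42.0 size factors, upper-quartile factors, library totals, filters, the DESeq2 test, limma-voom 3.58.1, a replicate block and left-out libraries.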

Additional observations from a re-analysis of the deposited data

How the results depend on the processing

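No member changed direction under any of the 15 settings. With upper-quartile factors 1 member rose in place of 2 and 7 fell in place of 5, 2CPB and SRX being added. The number that rose was also 1 with a filter of at least 10 counts in every library, which leaves PRXIIC untested. When libraries were left out in turn, it was 1 to 2, and the number that fell was 3 to 5. Without high light replicate 2 or 3, or high CO2 replicate 1 or 2, 2CPA and PRXIIF both lost the call. PRXQ, PRXIIE and NTRC were called under all 15 settings, PRXIIC under the 14 that tested it, 2CPA and PRXIIB under 11, 2CPB under 5, PRXIIF under 2 and SRX under 1. Upper-quartile factors called 4386 genes risen and 7883 fallen, against 5631 and 5616 with TMM; the cause was not tested. Of the donor lists, extended to these settings after the data were seen, the plastid donors that rose numbered 2 with library totals, with the DESeq2 test and without high CO2 replicate 2. TRXL2.2, the 1 oxidising thioredoxin that fell, lost its call in 11 settings, and ACHT4 with upper-quartile factors (0.29, edgeR adjusted p = 0.0536). The fall of CAT2 was called under all 15 settings.

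A fit with the replicate number as a block called 5880 genes risen and 6071 fallen, 2 members risen and 5 fallen, now with 2CPB (-0.51, edgeR adjusted p = 0.00730) and without PRXIIF (-0.31, edgeR adjusted p = 0.0508). No label states that equal numbers pair the libraries, and the data do not settle it. Same-numbered libraries deviated from their group means with correlations of 0.219, -0.0207 and 0.410, the last being the highest of all pairs. Not every library correlated best with its own number. Depth limits PRXIID and PRXIIC in high CO2, where few reads set the ratio. None of the 5 ratios changed its direction without any 1 library or with counts not divided by length.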
